A study of Mus musculus with 9 samples.

Results

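H19 and Igf2 are neighbouring imprinted genes on mouse chromosome 7, and their read counts were followed here in 3 genotypes of mouse embryonic fibroblasts (MEF cells). They are 2 of the 47937 genes counted. Both were chosen from their levels in these same libraries, where they stood low in the mutants, so the differences of H19 and Igf2 between genotypes are given as a description, with no test. The RNA came from 9 libraries, 3 of each genotype, all derived from a MEF clone in which the H3K9 methyltransferase gene Eset1 can be deleted. That clone is called WT, and the library names list no loss of Eset1. S1S2 cells carry CRISPR/Cas9 mutations of Suv39h1 and Suv39h2, whose enzymes place H3K9me3 on pericentric heterochromatin. G9Gl cells carry CRISPR/Cas9 mutations of G9a (Ehmt2) and Glp (Ehmt1), whose enzymes place H3K9me1 and H3K9me2. The paper states that after CRISPR/Cas9 disruption an inducible Cre construct was added again and the lines were kept in puromycin. Each mutant genotype is 1 clone, picked for the absence of the targeted proteins on western blots, so the mutations and the history of the clone cannot be told apart, and the 3 libraries of a genotype measure the spread within a clone.

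H19 makes a long non-coding RNA from the maternal chromosome, and Igf2 makes insulin-like growth factor 2, a fetal growth factor, from the paternal chromosome. The pair shares enhancers on the far side of H19. On the maternal chromosome the insulator protein CTCF binds an unmethylated control region just before H19 and keeps the enhancers from Igf2, and on the paternal chromosome DNA methylation of that region keeps CTCF away and silences H19. H19 RNA is also the precursor of the microRNA miR-675, and both genes are active in embryonic mesenchyme and turned down in most tissues after birth. The counts do not separate the parental alleles.

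In GRCm38, H19 (ENSMUSG00000000031) lies at chr7:142575529-142578143 on the minus strand and is annotated as a lincRNA. Igf2 (ENSMUSG00000048583) lies at chr7:142650766-142666816 on the same strand, 72.62 kb further along, and is protein-coding with 9 annotated transcripts. Igf2os, an antisense transcript, starts inside Igf2 at chr7:142659693-142670356 on the plus strand and shares 98 bases of exon with it, 1.71% of the exonic bases of Igf2. Another gene model on the minus strand, Gm49394, covers 62.8% of the exonic bases of Igf2 in the later GENCODE M21 annotation. It had no row of its own in the count table and was not analysed here, so how reads of such a transcript, if made, were counted is not known, and it overlaps exons of both Igf2 and Igf2os. Of the 75-base words in the exons of H19, 0.365% recurred in another counted gene, which was Mir675. For Igf2 this share was 0.444%, all in Igf2os.

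The microRNA sequences carried by the H19 transcript are shown because they are the small RNA product of a gene that was low in both mutants. Mir675 lies within an H19 exon at chr7:142577064-142577147. The sequences are from RefSeq (GRCm38.p6), written 5′ to 3′, with both mature arms in capitals in the hairpin and the seed, bases 2 to 8, in capitals in each mature microRNA.
Mir675 hairpin: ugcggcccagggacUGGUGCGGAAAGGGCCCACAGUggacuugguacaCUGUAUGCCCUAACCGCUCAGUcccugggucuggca
miR-675-5p: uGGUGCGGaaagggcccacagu
miR-675-3p: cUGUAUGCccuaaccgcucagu
The 2 seeds differ from each other, and each occurred in 1 of 1738 mature mouse microRNAs in RefSeq. Mir675 itself was at 0 counts in all 9 libraries, which allows up to 3 counts a library, or 0.0922 to 0.141 CPM (counts scaled to library size). Total RNA libraries are not made to capture mature microRNAs, so a count of 0 there is no measure of miR-675.

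Igf2 matched 4 start sites among the RefSeq promoters. For Igf2, a gene that was low in both mutants, the start nearest to the 3′ end, at position 142657496, is shown. The 250 bases before it, at chr7:142657497-142657746, are read on the minus strand with the motif GGGCGG in capitals.
Igf2 promoter: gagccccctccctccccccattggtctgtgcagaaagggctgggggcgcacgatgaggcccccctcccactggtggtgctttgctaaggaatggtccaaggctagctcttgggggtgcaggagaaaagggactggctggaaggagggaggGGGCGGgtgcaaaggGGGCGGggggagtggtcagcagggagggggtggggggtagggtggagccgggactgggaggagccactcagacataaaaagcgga
This window is 66% G and C. It holds GGGCGG at 2 places, which do not overlap, and no TATAAA, both searched on either strand. Across the 32851 mouse promoter windows of this length, 32.7% held GGGCGG and 12.4% held TATAAA.

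H19 was read 607, 620 and 521 times in the WT libraries, 11, 16 and 12 times in S1S2, and 2, 3 and 1 times in G9Gl. Scaled to library size, H19 stood at 18.7, 20.5 and 16.8 CPM in WT, which is 18.6 ± 1.85 (mean ± SD, n = 3). The S1S2 libraries gave 0.505, 0.583 and 0.564 CPM, or 0.551 ± 0.0404. The G9Gl libraries gave 0.0701, 0.108 and 0.0326 CPM, or 0.0702 ± 0.0375, where no library had more than 3 counts, the level taken as the floor. The genotypes therefore fell in the order WT, S1S2, G9Gl with no overlap of libraries, and the lowest WT library was 28.8 times the highest S1S2 library. H19 in S1S2 was at 2.95% of the WT mean CPM, and in G9Gl at 0.376%.

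Igf2 was read 1003, 1048 and 1042 times in WT, 158, 193 and 190 times in S1S2, and 2, 4 and 3 times in G9Gl. Its levels were 30.8, 34.6 and 33.6 CPM in WT, 33.0 ± 1.95 (n = 3). In S1S2 they were 7.26, 7.03 and 8.93 CPM, 7.74 ± 1.04, and in G9Gl 0.0701, 0.144 and 0.0979 CPM, 0.104 ± 0.0371. Igf2 showed the same order as H19 with no overlap of libraries. As fold changes, its step from WT to S1S2 was smaller than that of H19 and its step from S1S2 to G9Gl larger. Igf2 in S1S2 was at 23.4% of the WT mean CPM, and in G9Gl 0.315%. Because these are bulk libraries, fewer cells that make the transcripts and less RNA per cell cannot be told apart.

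**Figure D1:**
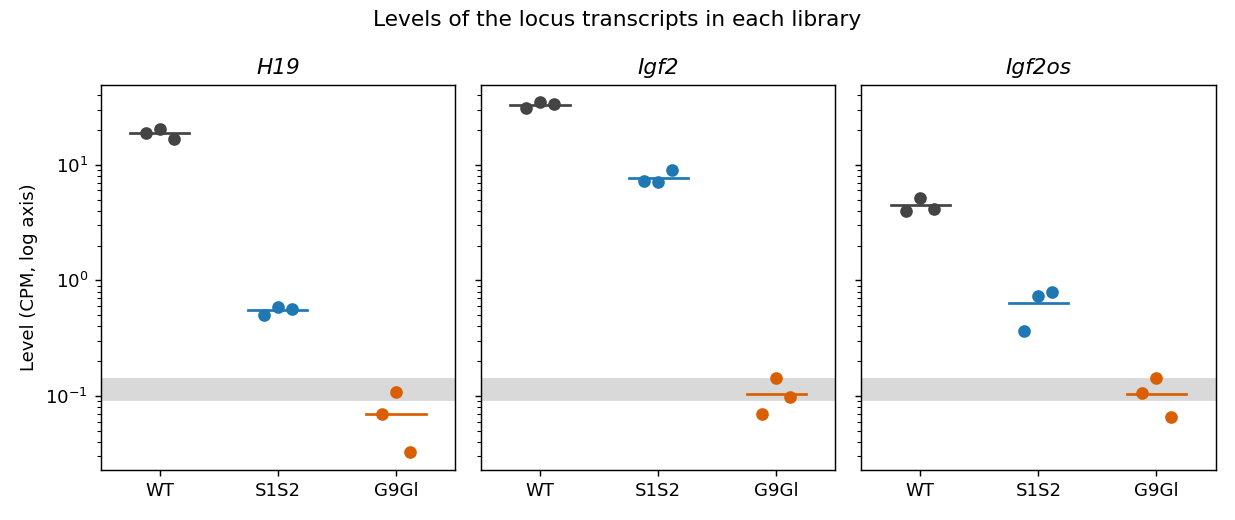
H19, Igf2 and the antisense Igf2os in CPM on a log axis, 1 point for each of the 9 libraries, with the mean of 3 libraries as a line and the level of 3 counts as a grey band. H19 and Igf2 of WT stand at 16.8 to 34.6 CPM, and all G9Gl points of the 3 genes lie at or near the band.

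As ratios of the counts summed over 3 libraries and scaled to their summed size, with exact 95% intervals for counting error, H19 was 33.7-fold lower in S1S2 than in WT (24.5 to 47.5) and 270.2-fold lower in G9Gl than in WT (124 to 737). Igf2 was 4.295-fold lower in S1S2 (3.92 to 4.71) and 319-fold lower in G9Gl (168 to 698). Between the mutants, H19 was 8.02-fold lower in G9Gl than in S1S2 (3.37 to 23.2), and Igf2 was 74.2-fold lower (38.8 to 163). The wide intervals against G9Gl rest on 6 counts of H19 and 9 of Igf2 over its 3 libraries. On the log2 scale the fitted changes of H19 were -5.06 in S1S2 and -7.99 in G9Gl relative to WT, and those of Igf2 were -2.10 and -8.26. Ordered from the lowest log2 fold change, H19 was number 45 and Igf2 number 336 of 15540 genes in S1S2 against WT. In G9Gl against WT they were numbers 15 and 14.

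These positions stand in comparisons where many genes differed. A gene was called when its adjusted p was at most 0.01 and its change at least 2-fold. In S1S2 against WT 9.0% of the 15540 genes tested were called, 4.66% as higher and 4.34% as lower, and libraries did not overlap for 56.0%. In G9Gl against WT 10.2% were called, 6.77% as higher and 3.40% as lower, with no overlap for 52.8%. In G9Gl against S1S2 13.1% were called, 7.97% as higher and 5.08% as lower, with no overlap for 60.8%. At an adjusted p of at most 0.05 with no fold cutoff, the shares called were 48.9%, 45.9% and 53.3%. The 3 comparisons share libraries, so they do not add up as separate evidence. Library totals ran from 21319778 to 32157623 counts, and the median log2 change of all genes was between -0.0067 and 0.00016 in the 3 comparisons.

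Per kilobase of the longest annotated transcript, H19 and Igf2 stood close together in WT, at 8.16 ± 0.810 and 6.99 ± 0.414 CPM per kb (SD, n = 3). The H19 level was 1.03 to 1.25 times that of Igf2 in the WT libraries, with a mean of 1.17. In S1S2 the order was turned, with H19 at 0.241 and Igf2 at 1.64 CPM per kb, and the ratio was 0.130 to 0.171 in the 3 libraries, with a mean of 0.149. The ratio in G9Gl ran from 0.689 to 2.07 with a mean of 1.43, on 1 to 4 counts per gene and library, and its mean was 0.671 with the counts of Igf2os added to those of Igf2. The ratios of WT and S1S2 did not overlap, whereas those of G9Gl spread over the WT range.

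Igf2os had levels of 4.45 ± 0.646 CPM in WT, 0.632 ± 0.231 in S1S2 and 0.105 ± 0.0392 in G9Gl. Its counts were 130, 157 and 129 in WT, 8, 20 and 17 in S1S2, and 3, 4 and 2 in G9Gl, with no overlap between the groups. Relative to Igf2, its counts came to 13.4% ± 1.37 in WT and 8.12% ± 2.74 in S1S2. In G9Gl the counts of both genes were about equal, with Igf2os at 66.7% to 150% of Igf2 on 9 counts each. Because Igf2os overlaps Igf2 and it is not stated whether the counting used the strand, the reads of the 2 genes cannot be kept apart with certainty. Mir483, a microRNA gene in an Igf2 intron, had 0 to 2 counts per library.

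The chromosome around the pair was surveyed in the 131 other counted genes within 1.5 Mb. Of these, 96 had a count in any library and 59 could be tested. In S1S2 against WT 14 of the 59 were called (23.7%, against 9.0% of all genes), 8 higher and 6 lower, with a median log2 change of 0.05. In G9Gl against WT 10 were called (16.9%, against 10.2%), 9 higher and 1 lower, with a median of 0.18. The 1 lower gene was Igf2os, whose reads cannot be kept apart from those of Igf2 with certainty. Brsk2, among the higher genes, had 0 counts in WT and S1S2 and entered the tests through G9Gl. In G9Gl against S1S2 18 were called (30.5%, against 13.1%), 11 higher and 7 lower. Over all genes tested, 3.40% were called lower in G9Gl against WT, so 1 lower of 59 neighbours is not read as a result about them. The p-values below are from edgeR's quasi-likelihood test with Benjamini-Hochberg adjustment over all 15540 genes.

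Mrpl23, a mitochondrial ribosomal protein gene and the next tested gene past the 3′ end of H19, was at 12.2 CPM in WT, 11.2 in S1S2 and 11.9 in G9Gl, and was called in no comparison. Further out on that side, Syt8, Tnni2, Lsp1 and Tnnt3, each called in at least 1 mutant, lay below all WT libraries in S1S2 and above them in G9Gl. Libraries did not overlap for 56.0% of all genes in S1S2 against WT and for 52.8% in G9Gl against WT. On the same side Ctsd lay likewise with small log2 changes of -0.16 and 0.11, neither called, and Ifitm10 overlapped WT in both mutants. Syt8, a member of the synaptotagmin family, stood at 9.34 ± 0.477 CPM in the WT libraries, fell in S1S2 to 1.54 ± 0.462 (log2 change -2.63, adjusted p = 1.67e-09) and rose to 29.7 ± 4.32 in G9Gl (1.67, adjusted p = 1.51e-09). Lsp1, an actin-binding protein of leukocytes, fell to 18.5 CPM in S1S2 from 59.1 in WT (-1.68, adjusted p = 1.43e-11) and stood at 84.2 in G9Gl, which was 0.51 above WT and short of 2-fold. Tnni2, the troponin I of fast skeletal muscle, fell in S1S2 by 2.15 on the log2 scale (adjusted p = 1.72e-05), and its change of 0.93 in G9Gl was not called. Tnnt3, the troponin T of fast muscle, rose in G9Gl (1.37, adjusted p = 0.00106) and had a log2 value of -1.44 in S1S2 (adjusted p = 0.0122). All 4 were higher in G9Gl than in S1S2, by 2.19 to 4.29 on the log2 scale. Lsp1 and Tnnt3 overlap the gene Prr33 on the other strand.

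On the side of Igf2, Ins2 and Ascl2 were at or near 0, with 1 and 2 counts over the 9 libraries, and Th was at 0 in all. Tspan32, a tetraspanin gene, fell in S1S2 (log2 change -2.46, adjusted p = 1.84e-05) and rose in G9Gl (1.95, adjusted p = 1.99e-07). It overlaps Tspan32os on the other strand and had 10 counts in S1S2. Cd81, a broadly expressed tetraspanin, stayed within 2-fold of WT at 161 to 257 CPM.

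The next imprinted cluster, which takes in Ascl2, Tspan32, Cd81, Kcnq1, Cdkn1c and Phlda2, holds Kcnq1ot1, a long paternal antisense RNA that silences its neighbours on the same chromosome. Kcnq1ot1 was abundant, at 361 ± 6.56 CPM in WT, 310 ± 2.93 in S1S2 and 379 ± 8.16 in G9Gl, and was called in no comparison. Cdkn1c, a maternally expressed inhibitor of cyclin-dependent kinases, rose in S1S2 from 20.9 ± 0.897 to 50.5 ± 0.879 CPM (1.27, adjusted p = 7.83e-12) and stood at 20.0 ± 0.700 in G9Gl. Phlda2, a maternal gene that limits placental growth, rose in S1S2 too (1.18, adjusted p = 0.00676), at 0.530 CPM in WT and 1.22 in S1S2, a call that DESeq2 did not make. The count of Kcnq1, a potassium channel gene, rose by 2.20 on the log2 scale in S1S2 (adjusted p = 0.00103) and by 3.95 in the G9Gl libraries (adjusted p = 1.32e-07), from 11 counts in WT to 39 and 163. Kcnq1 lies across Kcnq1ot1 on the other strand, and Kcnq1ot1 differed from WT by -0.22 and 0.07 on the log2 scale in the same libraries. Nap1l4, a histone chaperone gene past Phlda2, differed from WT by 0.13 in S1S2 and -0.06 in G9Gl and was not called.

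Elsewhere in the window, the decoy receptor genes Tnfrsf22 and Tnfrsf23 rose in S1S2 by 2.32 and 3.52 on the log2 scale (adjusted p = 1.6e-10 and 2.25e-11) and were not called in G9Gl. Shank2, a scaffold of synapses, rose in both mutants, to 4.45 CPM in S1S2 and 1.01 in G9Gl from 0.137 in WT. Irf7, a transcription factor of the interferon response, rose from 1.77 ± 0.444 CPM in WT to 8.56 ± 1.43 in S1S2 and 22.5 ± 5.64 in G9Gl. Drd4, a dopamine receptor gene, fell in S1S2 from 0.867 ± 0.210 to 0.165 ± 0.102 CPM (-2.32, adjusted p = 0.000408) and stood at 0.823 ± 0.252 in G9Gl. Gm10575, which overlaps Cd151 and Cracr2b on the other strand, rose in S1S2 (1.62, adjusted p = 6.83e-05). In G9Gl Pkp3, a gene of desmosomes, rose by 1.13 on the log2 scale (adjusted p = 9.37e-06) and Sigirr, which dampens interleukin receptor signals, by 1.27 (adjusted p = 4.49e-06). Ifitm10 was called only between the mutants, where it was higher in G9Gl (1.03, adjusted p = 0.0068), a call that DESeq2 did not make. Brsk2, a kinase gene of neurons, was at 7.23 ± 0.589 CPM in G9Gl and at 0 counts in every other library. Set against the floor of 3 counts per library, Brsk2 was at least 75.3-fold higher in G9Gl than in WT.

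**Figure D2:**
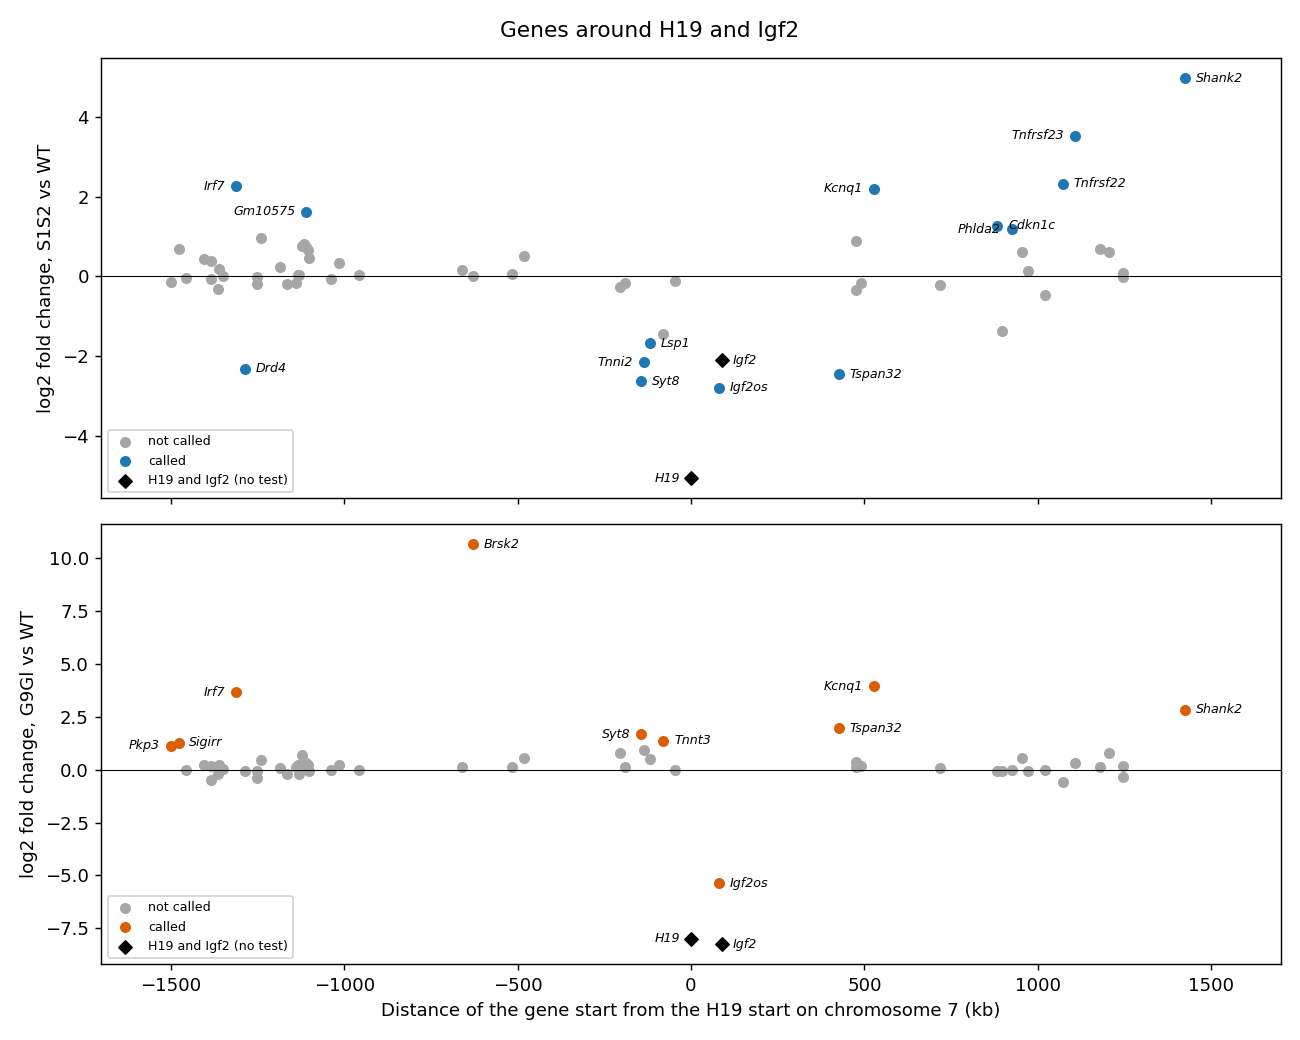
Log2 change against WT (vertical axis) of the tested genes by their distance in kb from the start of H19 (horizontal axis), with S1S2 above and G9Gl below. Called genes are coloured and named, and H19 and Igf2, for which no p-value is given, are black diamonds. In G9Gl, H19 at -7.99 and Igf2 at -8.26 stand below the other genes of the window, and Igf2os at -5.36 is the next lowest.

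Among the genes through which IGF2 acts, its receptors stayed within 2-fold of WT. Signals of IGF2 pass through the type 1 receptor Igf1r and the insulin receptor Insr, whereas Igf2r binds IGF2 and clears it. Of 29 genes listed for ligands, receptors, binding proteins and signalling, 19 were tested. In S1S2 4 were called (21.1%, against 9.0% of all genes), 1 higher and 3 lower. In G9Gl against WT 4 were called (21.1%, against 10.2%), 3 higher and 1 lower, and in G9Gl against S1S2 2 were called (10.5%, against 13.1%). Igf2r was at 602 ± 18.8 CPM in WT, 579 ± 4.30 in S1S2 and 621 ± 28.8 in G9Gl. Igf1r was at 185 ± 21.3, 131 ± 0.506 and 183 ± 6.20 CPM, and Insr at 77.7 ± 3.31, 88.8 ± 4.35 and 73.9 ± 1.75 CPM. None of the 3 receptors was called in any comparison. Short of 2-fold, Igf1r in S1S2 lay below all WT libraries (-0.49, adjusted p = 4.34e-06) and Insr above them (0.19, adjusted p = 0.00354).

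The related ligand Igf1 stood at 28.2 ± 1.84 CPM in WT and 24.5 ± 0.220 in S1S2, and fell to 10.5 ± 2.18 in G9Gl (log2 change -1.43, adjusted p = 2.6e-09). The binding proteins, which hold IGFs outside the cell, moved in different directions. Igfbp4 fell in S1S2 from 114 ± 4.50 to 42.5 ± 4.98 CPM (-1.42, adjusted p = 2.74e-11) and was at 76.4 ± 4.96 in G9Gl. Igfbp3 was scarce, with 26 counts over the WT libraries, 3 in S1S2 and 161 in G9Gl, and was called lower in S1S2 (adjusted p = 0.00356) and higher in G9Gl (log2 change 2.72, adjusted p = 8.87e-07). WT had 6.51 times the Igfbp3 level of S1S2, with an interval of 2.00 to 33.6, and DESeq2 did not call the difference. Igfbp7 was called higher in both mutants, on 1 count in WT, 16 in S1S2 and 39 in G9Gl. The S1S2 level of Igfbp7 was 21.3 times that of WT, with an interval of 3.31 to 893. Igfbp3 and Igfbp7 entered the tests through their counts in G9Gl, so their calls as higher there rest on the group that admitted them. In S1S2 against WT with only the libraries compared, neither was tested and 2 calls were left in the list. Pappa, a protease that cuts IGF-binding proteins, rose in G9Gl (1.15, adjusted p = 0.00104). Grb10, an imprinted adaptor that dampens receptor signalling, fell in S1S2 from 360 ± 15.6 to 179 ± 13.6 CPM (-1.01, adjusted p = 6.76e-11). Without S1S2 replicate 1 Grb10 was at -0.96 and Igfbp7 had an adjusted p of 0.0146, without S1S2 replicate 2 Grb10 was at -0.99 and Igfbp3 had an adjusted p of 0.0202, and each of these calls was then lost, leaving 2.

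The RNA-binding proteins Igf2bp1, Igf2bp2 and Igf2bp3, named for binding Igf2 mRNA, stood at 123, 147 and 52.4 CPM in WT. None was called in a comparison, and their log2 changes against WT lay between -0.08 and 0.69 in S1S2 and between -0.50 and 0.14 in G9Gl.

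**Figure D3:**
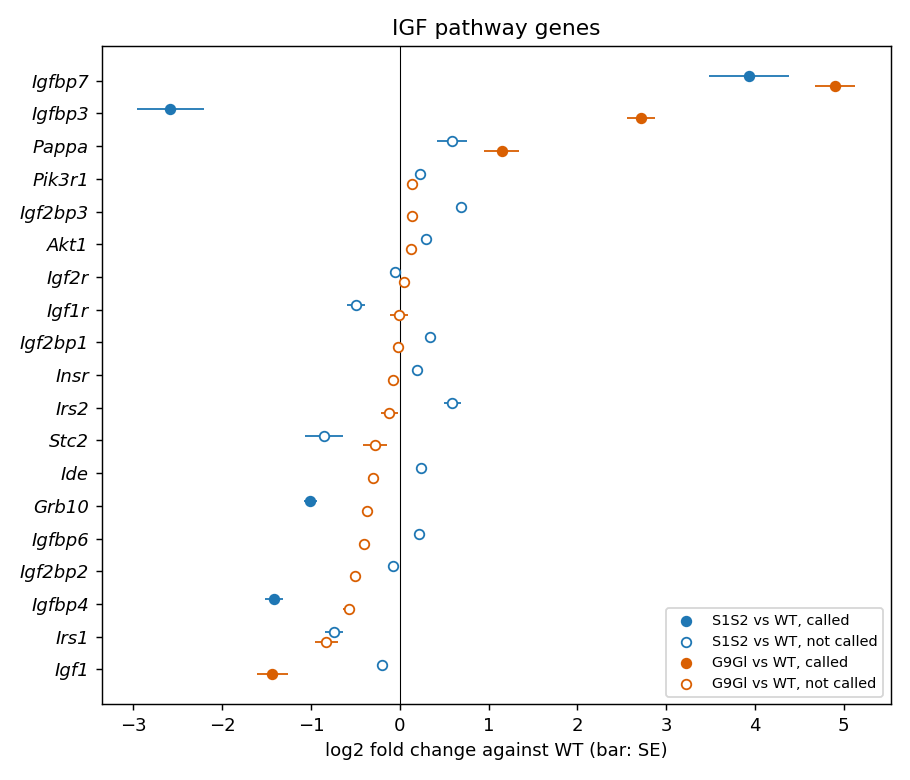
Log2 change against WT of the IGF pathway genes that were tested, with 1 row for each gene and 1 marker for each mutant, filled where called, with the SE as a bar. The 3 receptors lie between -0.49 and 0.19, while Igfbp3 is at -2.58 in S1S2 and 2.72 in G9Gl.

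Regulators known to act on the locus were mostly short of the 2-fold threshold. Of 29 listed genes, 25 were tested. In S1S2 2 were called (8%, against 9.0% of all genes), in G9Gl against WT 1 (4%, against 10.2%) and in G9Gl against S1S2 2 (8%, against 13.1%). Ctcf, the insulator protein gene, was at 152 ± 6.38 CPM in WT, 152 ± 2.53 in S1S2 and 128 ± 0.869 in G9Gl. Its log2 difference of -0.25 in G9Gl was small but larger than the spread between libraries (adjusted p = 8.44e-05). Zfp57 and Trim28, which protect methylated imprinting regions together, had log2 changes against WT between -0.24 and 0.01 in both mutants. Plagl1, an imprinted zinc finger factor known to activate Igf2, rose in S1S2 from 1.69 ± 0.412 to 5.42 ± 0.357 CPM (1.68, adjusted p = 3.8e-07) and fell in G9Gl to 0.402 ± 0.0161 CPM (-2.06, adjusted p = 3.6e-06). Tet1, which oxidises methylated cytosine, was at 18.9, 18.2 and 19.8 CPM in the WT libraries, fell in S1S2 to 7.66 ± 0.608 CPM (-1.31, adjusted p = 1.67e-09) and stood at 9.93 ± 0.661 in G9Gl. Hmga2, a chromatin protein gene of embryonic cells, was lower in G9Gl than in S1S2 (-1.05, adjusted p = 8.36e-08), with a log2 difference of -0.996 without S1S2 replicate 1.

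Other imprinted genes that are often expressed together with H19 and Igf2 did not share their pattern as a group. Of 18 names listed, 17 were found in the table and 12 were tested. In S1S2 4 were called (33.3%, against 9.0% of all genes), with Plagl1 and Cdkn1c higher and Grb10 and Dcn lower. In G9Gl against WT 4 were called (33.3%, against 10.2%), with Ppp1r9a and Gatm higher and Plagl1 and Dcn lower. In G9Gl against S1S2 5 were called (41.7%, against 13.1%), 2 higher and 3 lower. Gatm, an enzyme gene of creatine synthesis, entered the tests through G9Gl, with 3 counts in WT, 0 in S1S2 and 46 in G9Gl, and its level in G9Gl was 16.5 times that of WT, with an interval of 5.32 to 83.1. Dcn, which encodes the matrix proteoglycan decorin, had the same order of genotypes as H19 and Igf2, at 7.21 ± 0.479 CPM in WT, 2.18 ± 0.834 in S1S2 and 0.198 ± 0.0807 in G9Gl. Its log2 changes against WT were -1.71 (adjusted p = 1.74e-06) and -5.17 (adjusted p = 1.46e-10). Dlk1, a paternally expressed regulator of growth, was at 17.0 ± 3.38, 12.4 ± 0.568 and 19.2 ± 3.13 CPM and was not called. Meg3, Mest and Ndn had 0 counts in all 9 libraries, WT included.

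The genes most like H19 and Igf2 over the 9 libraries were sought by Euclidean distance between log2 CPM values centred on the WT mean of each gene, as a description over libraries of 3 genotypes. Nearest to H19 were Adgrl3, Kctd15, Fmod and Miga1, at distances of 3.35 to 4.15, and then Igf2 as number 5. Nearest to Igf2 were Eya4, Lmx1b, Adgrl3, Smarca2 and C130021I20Rik, at 1.30 to 3.80, with H19 as number 14. Eya4, a developmental transcription co-factor, was at 51.8 ± 2.61 CPM in WT, 15.1 ± 1.17 in S1S2 and 0.335 ± 0.0657 in G9Gl. Lmx1b, a homeobox factor of limb development, was at 10.5 ± 1.36 and 3.56 ± 0.483 CPM in WT and S1S2 and at 0 counts in all G9Gl libraries. Fmod, which encodes the matrix protein fibromodulin, was at 3.40 ± 0.439 CPM in WT, 0.0980 ± 0.0464 in S1S2 and 0.0228 ± 0.0198 in G9Gl. In WT the genes named here were well above the level of 3 counts, and in G9Gl most were at or near it, so distances among them there reflect few counts.

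**Figure D4:**
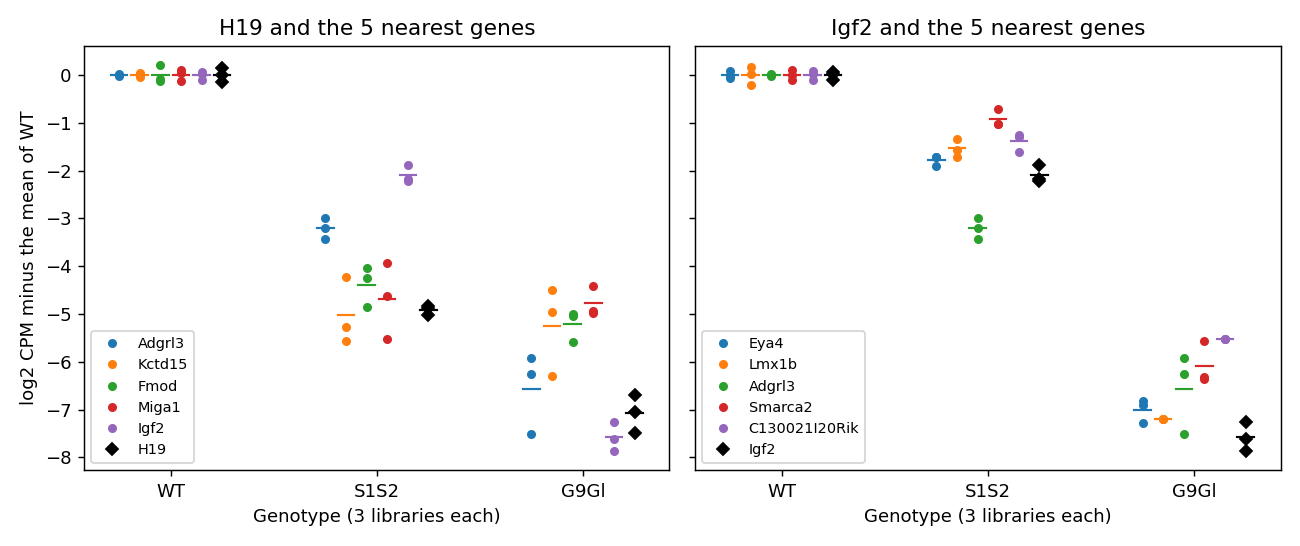
H19 (left) and Igf2 (right) with the 5 genes of smallest distance, as log2 CPM minus the mean of WT, 1 point for each library and a short line for the mean of 3. The S1S2 libraries lie between WT and G9Gl for Eya4, Lmx1b, Smarca2 and Igf2, and close to G9Gl for Kctd15, Fmod and Miga1.

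The markers of cell identity and the targeted genes were read in the same libraries. Of 11 fibroblast markers, 10 were above 1 CPM in WT and S1S2 and 9 in G9Gl, while Lum was at or under 3 counts in every library. Of the 10 tested, 6 were called lower in S1S2 (60%, against 9.0% of all genes), while Vim was at 1457 ± 97.5 CPM in WT and 2398 ± 100.3 in S1S2 (log2 difference 0.72, adjusted p = 1.4e-08, short of 2-fold) and Fn1 differed by 0.09. In S1S2 Col3a1 fell from 1526 ± 42.3 to 190 ± 14.7 CPM, Col1a2 from 2394 ± 90.9 to 395 ± 11.9 CPM and Pdgfra from 14.5 ± 1.58 to 3.54 ± 0.237 CPM, with log2 changes of -3.01, -2.60 and -2.04. In G9Gl 4 were called (40%, against 10.2%), with Pdgfra (-1.85), Pdgfrb (-1.34) and Dcn (-5.17) lower and Thy1 (2.94) higher. Col1a2 in G9Gl, at 2028 ± 77.6 CPM, was not called. Their summed level, carried by abundant genes such as Col1a1, Vim and Fn1, was 9864 to 11364 CPM in WT, 7401 to 7468 in S1S2 and 7794 to 8653 in G9Gl.

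In the lists of other cell types, 1 or 2 genes held most of each sum. The 5 epithelial markers summed to 0.297 to 0.548 CPM in WT, 4.70 to 5.59 in S1S2 and 4.21 to 5.38 in G9Gl. In S1S2 this was Krt8, at 4.67 CPM, and in G9Gl it was Krt14, at 4.38 CPM, whereas Krt8 in G9Gl was at 0.221 CPM. Epcam was at 0.266 CPM in WT, 0.197 in S1S2 and 0.0682 in G9Gl, and Cdh1 was at or under 3 counts throughout. The 4 endothelial markers summed to 0.123 to 0.193 CPM in WT, 1.55 to 1.70 in S1S2 and 0.790 to 2.35 in G9Gl, mostly from Kdr in S1S2 (1.22 CPM) and from Cdh5 in G9Gl (1.01 CPM). The 4 trophoblast markers summed to 18.5 to 22.5 CPM in G9Gl and at most 0.529 elsewhere. Nearly all of that was Prl2c2, at 20.6 ± 2.12 CPM, with Prl3d1 at 0.229 CPM and Gcm1 and Tpbpa at 0. The 4 muscle markers summed to 2.86 to 3.25 CPM in WT, 2.66 to 3.81 in S1S2 and 9.93 to 11.4 in G9Gl, where Des was at 7.60 and Acta1 at 2.97 CPM, with Myod1 at 0 in all libraries. Of the 4 blood markers, Adgre1 was at 0 in all libraries, Itgam had at most 3 counts and Ptprc at most 4, and Cd68 was at 4.36 CPM in WT, 3.53 in S1S2 and 4.40 in G9Gl. The part of these marker differences in the levels of H19 and Igf2 was not tested. Suv39h1 fell from 108 to 41.9 CPM in S1S2, while Suv39h2 stood at 33.9 CPM in WT and 55.2 in S1S2. Ehmt2 fell from 125 to 54.2 and Ehmt1 from 103 to 50.2 CPM in G9Gl. A transcript that carries a small mutation can still be counted, so these levels are no check of the mutations themselves.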

How the data were processed

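Stranded total RNA libraries from 9 MEF samples, 3 of each genotype, had been sequenced as paired ends by the authors, aligned to GRCm38 with STAR 2.5.2b and counted per gene with TEtranscripts. The deposited values are raw counts per gene. The annotation release and the strand setting of the counting are not given in the sources used here. Genes were named with GENCODE M21, in which 47224 of 47937 identifiers matched. Counts were fitted with edgeR 4.0.16 (R 4.3.3) by its quasi-likelihood test with TMM factors over all 9 libraries, after a filter on low counts, which left 15540 genes. CPM values use TMM-scaled library sizes. A gene was called at 0.01 or less after Benjamini-Hochberg adjustment, with at least a 2-fold difference. Standard deviations are over 3 libraries. Intervals of ratios are exact conditional binomial intervals at 95% and cover counting error only. The floor of 3 counts per library is the upper limit that 0 counts allow. Scripts were tested on simulated data. DESeq2 1.42.0 was an alternative. The methods call the libraries of a line biological replicates, and the p-values measure their spread. The members and gene lists were chosen with earlier results of these data known. Named genes were drawn from those called in a list or among the neighbours, a set named whatever its change (such as Mrpl23, Cd81, Nap1l4 and Ctcf), the 5 genes nearest to each member and the markers. Replicate numbers did not pair the libraries.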

Additional observations from a re-analysis of the deposited data

Results flagged for a closer look

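For 7 genes among the neighbours, the IGF pathway, the locus regulators and the imprinted genes, with the marker lists left out, the differences of S1S2 and of G9Gl from WT had opposite signs, both at 0.01 or less after adjustment, and the difference between the mutants was called by edgeR's quasi-likelihood test. On the log2 scale, G9Gl was above S1S2 for Tspan32 by 4.40 (adjusted p = 5.54e-10), for Syt8 by 4.29 (2.63e-13 adjusted), for Tnni2 by 3.08 (6.45e-08 adjusted) and for Lsp1 by 2.19 (1.48e-13 adjusted). Igfbp3 was above S1S2 in G9Gl by 5.30 (adjusted p = 3.22e-08), on 3 counts in S1S2. Igfbp3 entered the tests through its counts in G9Gl, and DESeq2 did not call its fall in S1S2. Without S1S2 replicate 2 that fall had an adjusted p of 0.0202, so the place of Igfbp3 among the 7 depends on the setting. Tnfrsf22, with -2.91 (adjusted p = 1.1e-11), and Plagl1, with -3.74 (adjusted p = 1.99e-10), were lower in G9Gl than in S1S2. Syt8, Tnni2 and Lsp1 lie together past the 3′ end of H19, and Tspan32 and Tnfrsf22 lie past Igf2. The 7 are 6.31% of the 111 genes tested in these lists, and 509 of all 15540 genes tested, 3.28%, met the same criteria. These genes were picked by their opposite signs, so the sign itself is no further evidence.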

How the results depend on the processing

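No direction of H19 or Igf2 changed under any setting that was run. Normalisation by DESeq2 size factors or library totals, DESeq2, no low-count filter, the 2 genotypes alone and the smaller prior count left all gene-list counts within 1.5 times and the member values within the replicate spread, except as follows. With only the libraries compared, 2 IGF pathway genes were called in S1S2 against WT, since Igfbp3 and Igfbp7 no longer passed the filter. With no filter 2 locus regulators were called in G9Gl against WT, Lin28a being added. An adjusted p of at most 0.05 with no fold cutoff called 7599, 7138 and 8288 genes when S1S2 and then G9Gl were set against WT and last G9Gl against S1S2. In the same order it called 37, 30 and 39 neighbours, 15, 12 and 14 IGF pathway genes, 11, 14 and 19 regulators, and 8, 8 and 11 imprinted genes. As differences of log2 CPM at a prior count of 2, an alternative chosen after seeing the data, H19 was at -7.07 in G9Gl against WT and -2.17 against S1S2, and Igf2 at -7.58 and -5.49. With the counts of Igf2 and Igf2os summed, also chosen after seeing the data, Igf2 was at -7.47 in G9Gl against WT and -5.30 against S1S2, and the H19 to Igf2 ratio was 1.03 in WT and 0.671 in G9Gl, from 1.17 and 1.43. Leaving out each replicate in turn, H19 in G9Gl against S1S2 ran from -3.34 (without G9Gl replicate 2) to -2.57, the IGF pathway calls in S1S2 against WT from 2 to 4, and the regulators in G9Gl against S1S2 from 1 to 2 (without S1S2 replicate 1). DESeq2 did not call Phlda2 and Igfbp3 in S1S2 against WT, where it added Igfbp2 and Tspan32os. It added Cdhr5 and Asb4 in G9Gl against WT. Between the mutants it did not call Phlda2 and Ifitm10 and added Peg3, Cdhr5, Asb4 and Tspan32os.

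With a replicate block, 1383, 1568 and 2022 genes were called in the 3 comparisons against 1398, 1580 and 2028, and all 21, 18 and 25 list calls were kept. Correlations of same-numbered libraries ran from -0.0686 to 0.124, and 4 of 9 libraries correlated best with their own number, so the samples share only a number and the pairing is not taken from it. The planned fits of Gm49394 and of its sum with Igf2 were not run, since the table has no row for it. The levels of H19 and Igf2 in G9Gl rest on 6 and 9 counts.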
